A study of Arabidopsis thaliana with 40 samples.

Results

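Acetylation of histone H3 (H3K9/14ac) was mapped by chromatin immunoprecipitation and sequencing in whole seedlings of Arabidopsis thaliana, and the regions described here are those that overlap no protein-coding gene. A region of the deposited differential binding tables was taken when no base of it lay within the span of a protein-coding gene of the TAIR10.1 annotation, from start to end as annotated. This held for 318 of 13362 regions, and the other 13044 overlapped at least 1 protein-coding gene. Positions are given as the tables give them, and distances are the bases between a region and the nearest span of a protein-coding gene.

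The seedlings were 7 days old, with short days and shaken liquid medium common to all groups. One group received trichostatin A (TSA) at 5 µM, which blocks histone deacetylases. S-nitrosoglutathione (GSNO), which releases nitric oxide, was given at 250 µM, alone or with 500 µM of the nitric oxide scavenger cPTIO. Glutathione (GSH), which lacks the nitroso moiety, was given at 250 µM, and the remaining seedlings received water. Treatment lasted 3 h or 16 h, with 2 ChIP samples per treatment and time in the labels. The tables gave reads of 17 libraries, with a single water library at 16 h and none of TSA at 16 h, which was analysed as peak lists alone.

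Reads in the 13362 regions ranged from 1590342 to 4053207 per library. Since the tables do not number these libraries, the shallower of each group is named a and the deeper b. Values are reads scaled to a common depth by trimmed means (TMM), and a level is scaled reads per kb of region. Of the seedling markers, RBCS1A, TMM and ML1 of the shoot and SCR and SHR of the root stood between 141 and 359 scaled reads per kb in water at 3 h, LHCA1 stood at 2.95, and no region lay on STM, PLT1, PLT2 or WOX5. In whole seedlings, fewer cells with the mark and less of the mark per cell cannot be told apart.

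H3K9/14ac is laid down by histone acetyltransferases, removed by histone deacetylases and found mainly at the starts of transcribed genes. Genes that make no protein also carry it. Plant microRNA genes are transcribed by RNA polymerase II into primary transcripts from which short RNAs are cut, and small nucleolar RNA (snoRNA) genes, whose products guide the modification of ribosomal RNA, often lie in clusters with a start of their own. Transfer RNA genes are read by RNA polymerase III. Trans-acting siRNA (TAS) transcripts are cut under the guidance of a microRNA and yield siRNAs that act on other genes.

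Most of the 318 regions covered an annotated non-coding gene or a pseudogene. This was the case for 270 of them (84.9%), against 739 of the 13044 regions that overlap a coding gene (5.67%). By class, 47 regions lay on snoRNA genes, 21 on microRNA genes, 1 on small nuclear RNA genes, 119 on other non-coding RNA genes and 82 on pseudogenes, while 48 overlapped no annotated gene. A region was counted once, in that order of classes with microRNA first. The 318 regions include 4 on TAS genes and 5 on SADHU elements, which are non-coding retroelements. The microRNA class includes the region on TAS1B, which also covers a microRNA gene.

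The annotated classes differed in how many of their genes lay under a region. Of 287 snoRNA genes of the nuclear chromosomes, 123 (42.9%) lay under the 318 regions and another 63 (22.0%) under regions that also overlap a coding gene. Of 326 microRNA genes, 21 (6.44%) lay under the 318 regions and 20 (6.13%) under the others. None of 625 transfer RNA genes lay under the 318 regions, and 10 (1.6%) lay under the others. For comparison, 13369 of 27444 protein-coding genes (48.7%) were overlapped by a region.

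The regions lay on all 5 chromosomes, as 82, 69, 72, 46 and 49 regions on chromosomes 1 to 5. Their share of all regions was lowest on chromosome 5 at 1.59% and highest on chromosome 2 at 3.26%. The median distance to a protein-coding gene was 626 bases, with 18 regions closer than 100 bases, 115 from 100 to under 500, 60 from 500 to under 1000, 100 from 1000 to under 5000 and 25 at 5000 or more. The 318 regions had 306 different nearest coding genes, so a few regions share a neighbour. Just inside the rule lay regions 3, 18 and 19 bases from AT2G23540, AT1G01450 and AT2G22345, at 227, 212 and 290 scaled reads per kb. Just outside it lay regions that overlap HSPRO2, PGSIP2 and AT3G17090 by 1, 1 and 2 bases, at 148, 176 and 208.

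The regions were slightly narrower and lower than the rest. Their median width was 669.5 bases, against 721.5 in the rest, and their median level over the 17 libraries was 197 scaled reads per kb, against 217. The level ran from 95.1 to 899 over the 318 regions. The highest level was found at SADHU1-1 (chr2:4006289-4006886, 6865 bases from AT2G10440), with 899, followed by SADHU1-2 with 667, the pseudogene AT1G05135 with 604, SADHU1-3 with 527 and the region on the pseudogene AT1G35110, which also covers the element SADHU2-1, with 503. The lowest levels were 95.1 beside AT1G13360, 95.7 beside AT4G21366 and 98.8 at the non-coding RNA gene AT5G00980. In 9 of the 318 regions at least 1 library stood at 1 read, the lowest value in these tables, against 102 of the 13044 others.

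A region far from any coding gene could carry a level above the median. The farthest region lay on the pseudogene AT4G08110 (chr4:5085912-5086619), 49053 bases from AT4G08140, at 251 scaled reads per kb. The widest region, of 1825 bases (chr4:9506062-9507886), lay on the non-coding RNA gene AT4G16892, 89 bases from SNC1, which encodes an immune receptor of the TIR type, at 157 scaled reads per kb.

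With TSA at 3 h, regions outside protein-coding genes lost reads relative to the other regions. In limma over all 13362 regions, 69 of the 318 (21.7%) were lower with TSA and 0 were higher at an adjusted p under 0.05 (Benjamini-Hochberg). Over all regions tested, 10.0% were called lower and 5.32% higher. At an unadjusted p under 0.05 the test listed 110 of the 318 regions, 8 with a fold above 0 and 102 below it. Of all 13362 regions it listed 4060, in either direction. The median log2 fold of TSA over water was -0.33 in the 318 regions, with 240 below 0, against 0.02 in the rest, where 1267 of 13044 (9.71%) were lower and 711 higher. In the authors' deposited table, 89 of the 318 were lower and 6 were higher, with 10.1% of all regions lower and 10.7% higher. Lower in both were 64 regions.

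Without a test, both TSA libraries lay below both water libraries in 160 of the 318 regions (50.3%), against 30.3% of all regions, and above both in 32 (10.1%), against 31.7% of all regions. Both TSA libraries lay below each of the other 15 libraries of the tables, those of 16 h included, in 64 of the 318 regions (20.1%), against 1561 of the 13044 others. They lay above each of the others in 7 (2.2%), against 1537 of the others (11.8%).

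The reads of a library show the same difference as a share. The 318 regions held 1.58% and 1.59% of the reads in all regions in the TSA libraries, against 1.89% and 2.05% in the water libraries of 3 h. The means were 1.58% ± 0.00707 with TSA and 1.97% ± 0.113 in water (SD, n = 2 each). An exact two-sided permutation test gave p = 0.333, the smallest p that 2 libraries against 2 allow. In the 13 other libraries the share lay between 1.74% and 2.15%, so both TSA libraries were the lowest of the 17. In each group with 2 libraries the deeper one had the higher share. The TSA libraries held 2261175 and 2311352 reads, and the shallower water library 1867830 reads with a share of 1.89%. Whether depth bears on the share was not tested.

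**Figure D1:**
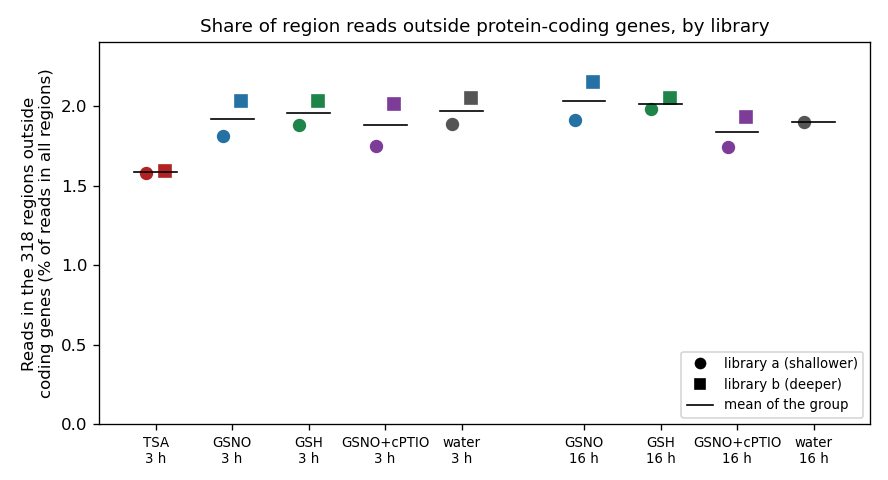
Share of the reads in all regions that fell in the 318 regions outside protein-coding genes (y axis, %), for each library by treatment and time (x axis), with the group mean as a line. The TSA libraries stand at 1.58% and 1.59%, and each of the other 15 at 1.74% or more.

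Across the table, the fold with TSA goes with the reads in a region, so the regions were also set beside others of like reads. These were the mean log2 scaled reads, not per kb, of the GSNO, GSH and GSNO with cPTIO libraries of 3 h, which are not part of this comparison. When all regions were cut by them into 10 equal bins, in the lower 5 bins 0 of the 219 regions outside coding genes were higher and 25 lower with TSA, with a median log2 fold of -0.25. Of the 6462 others of those bins, 528 were higher and 99 lower, with a median of 0.26. In the upper 5 bins 0 of 99 regions were higher and 44 lower with a median of -0.49, against 183 higher and 1168 lower of 6582 others with a median of -0.17. In each bin the median of the regions outside coding genes lay below that of the rest.

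**Figure D2:**
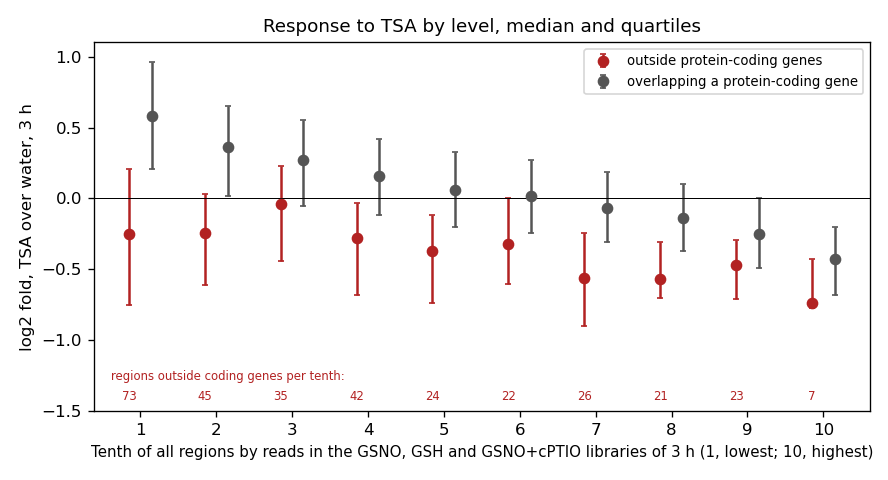
Median log2 fold of TSA over water at 3 h (y axis, bars from the first to the third quartile over regions) by bin of mean reads in the GSNO, GSH and GSNO with cPTIO libraries of 3 h, 10 bins from low to high (x axis), for regions outside protein-coding genes and for regions overlapping one. In the lowest bin the medians are -0.25 and 0.58, and in the highest bin, with 7 regions outside coding genes, -0.74 and -0.43.

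The median fold was below 0 in each class. Lower calls were made at 33 of the 119 regions on other non-coding RNA genes (27.7%), 9 of the 47 on snoRNA genes (19.1%) and 4 of the 21 on microRNA genes (19.0%). They were also made at 15 of the 82 on pseudogenes (18.3%), 7 of the 48 without an annotated gene (14.6%) and the 1 on small nuclear RNA genes. Median log2 folds ran from -0.17 at pseudogenes, over -0.31 at microRNA genes and -0.39 at other non-coding RNA genes, to -0.43 without an annotated gene and -0.45 at snoRNA genes. By distance, 30 regions were called lower of the 133 closer than 500 bases to a coding gene, and 39 of the 185 at 500 bases or more (21.1%). By finer bins the share called lower was 22.2% under 100 bases and 22.6% from 100 to under 500. It was 10.0% from 500 to under 1000, the share of all regions called lower, with a median of -0.25, and 23.0% from 1000 to under 5000. In the 25 regions 5000 or more bases away 10 were called lower (40.0%), with a median of -0.54. A trend with distance was not tested.

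The regions with the largest falls among those called lay in intergenic sequence or on non-coding RNA genes. Beside XTH18 (chr4:14827380-14828028, 168 bases away), which encodes a xyloglucan endotransglucosylase/hydrolase of the cell wall, the TSA libraries held 1.07 and 23.1 scaled reads, against 88.3 and 126 in water. The log2 fold was -3.91 ± 1.01 (SE, limma, adjusted p = 0.0112), and since 1 library stood at 1 read its size rests on that floor. The GSNO libraries of 3 h held 8.56 and 99.5 scaled reads there, so that one of them was also low, and the shallower library of GSNO with cPTIO held 23.1.

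Beside STZ (chr1:9649544-9650253, 220 bases away), a zinc-finger repressor known from salt and cold stress, TSA left 5.36 and 50.4 scaled reads, against 114 and 141 in water (log2 fold -2.82 ± 0.61, limma adjusted p = 0.00378). The other libraries ranged from 62.5 to 176, so both TSA libraries were the lowest of the 17 here. At the non-coding RNA gene AT1G67365 (chr1:25238468-25239077), 39 bases from ASY1, which encodes a protein of the meiotic chromosome axis, the TSA libraries held 70.8 and 87.1 scaled reads, against 301 and 245 in water. This log2 fold of -1.78 ± 0.20 had the lowest adjusted p of the 318 regions in limma, 1.37e-05. The other libraries at AT1G67365 ranged from 184 to 313.

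At 5 more regions the log2 fold lay between -1.84 and -1.41. They lay on the non-coding RNA genes AT4G03811, AT3G00520 and AT4G06701, beside AT2G24600 and, 30909 bases away, beside AT4G08097. At AT4G03811 (chr4:1756546-1757088), 14744 bases from a coding gene, TSA left 34.3 and 15.7 scaled reads, against 107 and 69.1 in water. At AT4G06701 (chr4:3940135-3940774), 15697 bases from a coding gene, the values were 45.0 and 82.9 with TSA, against 181 and 149 in water. In each of these 5 regions, which were chosen for their falls in this comparison, both TSA libraries lay below both water libraries, as in 30.3% of all regions.

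Leaving out 1 of the 4 libraries cut the number of lower calls to 33 (without TSA a), 34 (without TSA b), 27 (without water a) or 35 (without water b). The fold stayed below 0 for 69 of the 69 regions in each of these fits, and 13 regions were called in all 4. Beside XTH18 the fold ran from -5.70 to -2.16 over these fits and was called in the 1 that left out TSA b, and beside STZ it ran from -4.34 to -1.33 and was not called without TSA a. The call at AT4G03811 (-2.39 to -1.32) was lost without TSA b or water a, that at AT3G00520 (-2.22 to -1.32) without TSA a or water a, and that beside AT4G08097 (-2.07 to -0.91) without TSA a, water a or water b. The 13 were 8 regions on other non-coding RNA genes (AT1G67365, AT4G06701, AT1G07027, AT3G00720, AT1G09685, AT3G00580, AT1G07323 and AT2G18735), 4 on snoRNA genes (AT3G24612, AT1G19373, AT5G01775 and AT3G09105) and the region beside AT2G24600. Without water b, 2 regions were called higher, AT1G79245 at a log2 fold of 1.01 and AT2G20721 at 1.66.

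At microRNA genes the log2 folds with TSA ran from -1.24 to 0.09, and 19 of 21 were below 0. The 4 called lower were MIR396b, MIR166a, MIR167a and MIR159a. MIR396b, whose product targets growth-regulating factors, held 93.3 and 47.2 scaled reads with TSA, against 149 and 169 in water (log2 fold -1.24 ± 0.39, limma adjusted p = 0.0337). MIR166a, which targets class III HD-Zip factors, held 101 and 60.9 with TSA, against 186 and 172 in water (-1.18 ± 0.25, limma adjusted p = 0.0031). MIR167a, which targets auxin response factors, held 103 and 92.4 with TSA, against 191 and 214 in water (-1.04 ± 0.25, limma adjusted p = 0.00717).

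The groups did not overlap at these 3 genes or at MIR159a, which targets MYB factors related to GAMYB and held 167 and 172 scaled reads with TSA, against 260 and 248 in water (-0.58 ± 0.17, limma adjusted p = 0.0248). The 4 genes were called on these same values, so the separation, found in 30.3% of all regions, is no separate support. In the other libraries MIR396b also stood at 43.7 with GSNO and cPTIO at 16 h, which is below its lowest TSA value, and at 77.6 in water at 16 h, whereas at MIR166a, MIR167a and MIR159a both TSA libraries were the lowest of the 17. Without TSA b none of MIR166a (-0.84), MIR167a (-0.99) and MIR396b (-0.77) passed. MIR396b (-1.74 to -0.77) was also lost without either water library, and MIR159a (-0.62 to -0.54) without any 1 of the 4.

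At MIR159b the log2 fold was -0.56 ± 0.21 (limma adjusted p = 0.0715), close in size to that of MIR159a. At MIR167d it was 0.00 ± 0.41, with 96.5 and 144 scaled reads with TSA and 87.0 and 159 in water, groups that overlap. MIR156a and MIR156c, which target SPL factors of the phase change, gave -0.33 ± 0.21 and -0.31 ± 0.18 and were not called. The difference between loci of a family was not tested.

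The microRNAs that act on the silencing machinery itself were not called. MIR168a, which targets AGO1, gave -0.31 ± 0.18, MIR403, which targets AGO2, gave -0.58 ± 0.25, and MIR162a and MIR162b, which target DCL1, gave 0.09 ± 0.33 and -0.03 ± 0.36. MIR173, which directs the cutting of TAS1 and TAS2 transcripts, gave -0.05 ± 0.63. Its wide error goes with the spread between libraries, 69.7 and 63.0 scaled reads with TSA and 46.8 and 101 in water.

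All 4 TAS regions had folds below 0, and TAS1A was called. TAS1A (chr2:11721922-11722550) held 83.7 and 94.5 scaled reads with TSA, against 154 and 189 in water (log2 fold -0.93 ± 0.22, limma adjusted p = 0.00629). Both TSA libraries were the lowest of the 17 there, where the others ranged from 132 to 211. The call (-1.08 to -0.78) was lost without TSA a or water b. TAS1B, TAS1C and TAS2 gave -0.78 ± 0.32, -0.51 ± 0.39 and -0.28 ± 0.21. TAS1C (chr2:16537732-16538329) and TAS2 (chr2:16539855-16540504) are neighbours on the chromosome.

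Of the 5 SADHU regions 3 were lower with TSA. SADHU1-1 held 252 and 302 scaled reads with TSA, against 582 and 518 in water (-0.99 ± 0.21, limma adjusted p = 0.0038). SADHU1-2 held 266 and 276 with TSA, against 529 and 397 in water (-0.75 ± 0.19, limma adjusted p = 0.0112), and SADHU1-3 held 190 and 170 with TSA, against 309 and 294 in water (-0.74 ± 0.21, limma adjusted p = 0.0177). At these 3 both TSA libraries were the lowest of the 17, as at 47 of the 69 regions called lower (68.1%). These 3 lay in the highest of the 10 bins of reads set out above. In that bin 527 of the 1330 regions on coding genes (39.6%) were called lower, as were 5 of the 7 outside them. Over the fits that leave out 1 library the folds ran from -1.14 to -0.87 at SADHU1-1, -0.96 to -0.55 at SADHU1-2 and -0.84 to -0.68 at SADHU1-3. The call of SADHU1-1 was lost without TSA a or water a, that of SADHU1-2 without TSA a, TSA b or water a, and that of SADHU1-3 without any 1 of the 4. The region on SADHU2-1, which also covers the pseudogene AT1G35110 and is plotted under that name, and the region on SADHU4-1 gave -0.36 ± 0.20 and 0.09 ± 0.22 and were not called. TAS and SADHU regions were picked out as groups after their values had been seen, and reads of SADHU copies of like sequence may have been split or dropped in the alignment.

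At snoRNA genes 40 of 47 folds were below 0, in a range from -1.37 to 0.96. The 9 called lower were AT3G24612, AT1G19373, AT5G01775, AT3G09105, AT4G04465, AT1G20015, AT1G18745, AT3G08165 and AT3G02832. The region at AT3G24612 (chr3:8978908-8979609), 790 bases from ROPGEF8, held 113 and 77.7 scaled reads with TSA, against 178 and 227 in water (-1.10 ± 0.22, limma adjusted p = 0.0022). The region at AT3G09105 (chr3:21558981-21559710), 106 bases from AT3G58200, held 151 and 132 with TSA, against 293 and 250 in water (-0.93 ± 0.18, limma adjusted p = 0.00138).

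Median levels by class show the same order of libraries. On snoRNA genes the medians were 159 and 140 scaled reads per kb with TSA, against 183 and 217 in water. On microRNA genes they were 151 and 151 with TSA, against 199 and 214 in water. The small nuclear RNA region (chr1:12986702-12987423) covers AT1G06867, U1.14p and U4.10 and is named by AT1G06867. It held 26.8 and 63.0 scaled reads with TSA, against 127 and 95.8 in water (-1.40 ± 0.40, limma adjusted p = 0.0191). A GSNO library of 3 h stood at 51.4 there, between the TSA values. The call was lost without TSA a (-2.02 to -0.81 over the 4 fits) or water a.

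**Figure D3:**
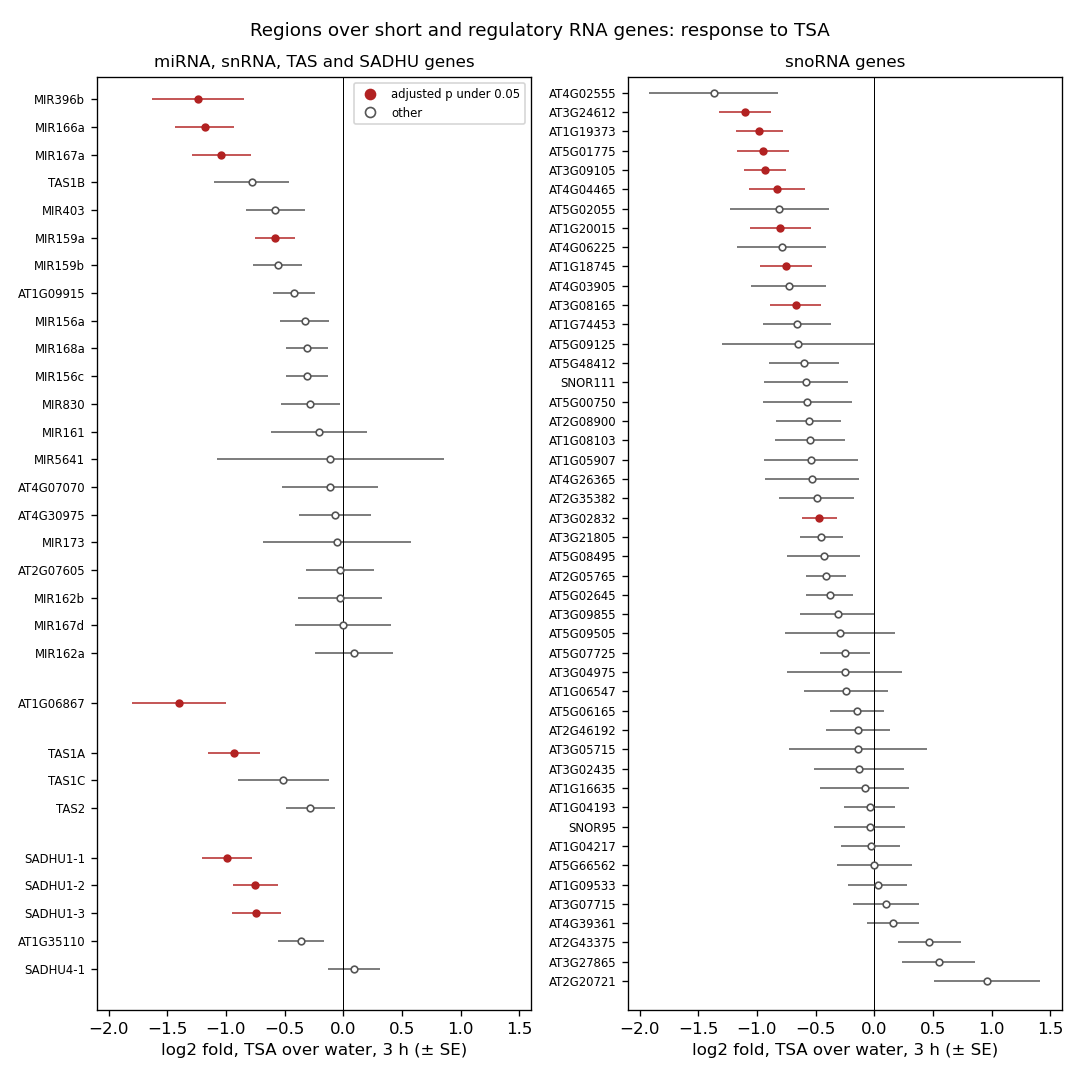
Log2 fold of TSA over water at 3 h (x axis, ± SE from limma) for each region on microRNA, small nuclear RNA, TAS and SADHU genes (left) and on snoRNA genes (right), with regions at an adjusted p under 0.05 filled. Most points lie left of 0, and the filled points run from -1.40 at AT1G06867 to -0.47 at AT3G02832.

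Higher with TSA in the authors' deposited table were 6 of the 318 regions. These were the pseudogenes AT1G45120, AT2G13130 and AT5G47445, the non-coding RNA genes AT2G41312 and AT4G03085, and the region beside AT4G31440. In limma each of the 6 had a fold above 0 and none passed, with adjusted p between 0.108 and 0.705. AT2G13130 (chr2:5420225-5420836) held 112 and 126 scaled reads with TSA, against 69.6 and 40.1 in water. AT2G41312 (chr2:17225513-17226263), 632 bases from RR3, a response regulator of cytokinin signalling, held 102 and 111 with TSA, against 44.2 and 66.1 in water. The groups did not overlap at either, and both TSA libraries lay above both water libraries in 31.7% of all regions.

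The nearest coding gene had a region of its own for 147 of the 318. The median log2 fold with TSA was -0.34 at those 147 and -0.14 at the regions on their neighbours, of which 27 were lower and 5 higher. Over all regions 10.0% were lower and 5.32% higher. The regions on the neighbours were 139 different ones. Of the 147, 33 were called lower, and the region on the neighbouring gene was lower in 7 of these cases and higher in 1. Across the 147 pairs Pearson's r was 0.0822 and Spearman's rho was -0.0394, given as a description, since all pairs share the same 4 libraries.

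The peak lists, which do carry replicate numbers, were called per library. Peaks of the TSA lists of 3 h overlapped 167 and 118 of the 318 regions, against 309 and 201 for water, with at least 1 base shared. The means were 142.5 ± 34.6 with TSA and 255.0 ± 76.4 in water (SD, n = 2 each, exact two-sided permutation p = 0.333, the smallest possible). Of the regions on coding genes, 89.7% and 74.9% had a peak with TSA, against 96.0% and 73.3% in water. A peak in both water lists and in neither TSA list was found at 62 of the 318 regions (19.5%), against 3.86% of the rest. The reverse was found at 2 (0.629%), against 2.07% of the rest.

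At 16 h the lists allow less, because those of replicate 2 were short for TSA and for water. They held 344 peaks with TSA and 1044 in water on the 5 chromosomes, against 14736 and 6810 in replicate 1. Peaks overlapped 239 and 3 of the 318 regions with TSA, against 168 and 0 in water (exact two-sided permutation p = 0.667). Within replicate 1, 239 of the 318 regions (75.2%) and 11576 of the rest (88.7%) had a peak with TSA, against 168 (52.8%) and 7831 in water.

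**Figure D4:**
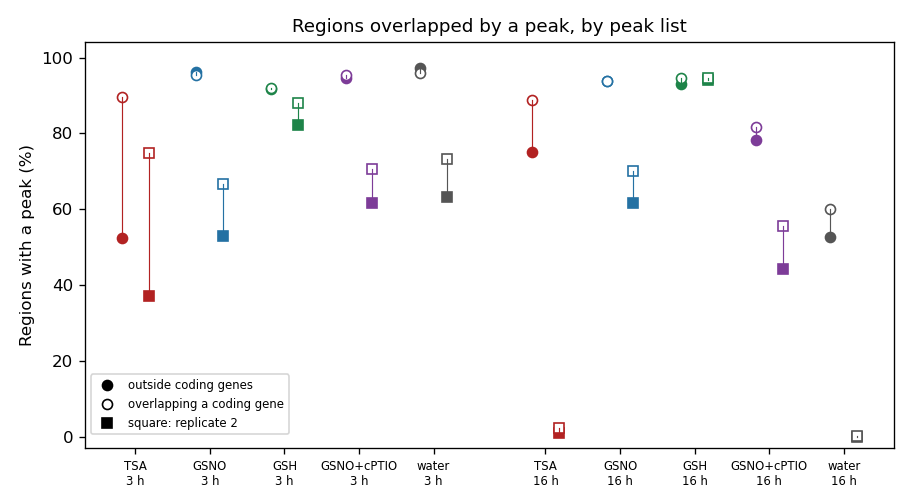
Percentage of regions with a peak (y axis) in each of the 20 peak lists, by treatment and time (x axis), for regions outside protein-coding genes (filled) and regions overlapping one (open), with replicate 1 as circles and replicate 2 as squares. The 2 TSA lists of 3 h show the widest gaps among lists of that time, 52.5% against 89.7% and 37.1% against 74.9%.

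GSNO, GSH and GSNO with cPTIO gave no call among the 318 regions at 3 h. In limma 0 regions were called in any of the 3 comparisons with water, where 0.00748% of all regions were called in each, and the authors' deposited tables called 0 of them as well, where of all regions 0.0449% were higher with GSNO, 0.105% with GSH and 0.015% with GSNO and cPTIO, and 0.0225% lower with GSNO and cPTIO. At an unadjusted p under 0.05 limma listed 10, 2 and 10 of the 318, and 515, 377 and 605 of all 13362 regions. In the authors' deposited test such a p was held by 11, 14 and 12 of the 318, and by 296, 542 and 446 of all regions. The median log2 folds were -0.04 with GSNO, -0.01 with GSH and -0.07 with GSNO and cPTIO. The 3 comparisons share the water libraries.

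The smallest p with GSNO were found at AT1G46554 (-0.78 ± 0.26) and AT4G10690 (-2.72 ± 0.91), neither of them called. At AT4G10690 the GSNO libraries held 1.43 and 110 scaled reads, against 135 and 84.7 in water, so the fold rests on library a, which stood at 1 read. With GSH the smallest p were found at AT3G09105 (-0.53 ± 0.18) and AT1G79245 (0.74 ± 0.28). With GSNO and cPTIO they were found at AT5G00435 (-1.86 ± 0.56) and AT1G79245 (0.80 ± 0.28). AT1G79245, a pseudogene 777 bases from AGC1.7, held 170 and 167 scaled reads with GSH and 189 and 163 with GSNO and cPTIO, against 65.6 and 153 in water, where library a was low. Without water b both folds of AT1G79245 were called, at 1.35 and 1.40, and without GSNO b the fold of AT4G10690 was called at -5.46.

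At 16 h the water group was a single library, assumed in limma to vary like the other groups. AT1G49832 (chr1:18447519-18448218), a non-coding RNA gene 746 bases from AT1G49830, was called higher in each of the 3 comparisons with it, and no other of the 318 regions was called. Over all regions 0.322% were called higher with GSNO, 0.374% with GSH and 0.554% with GSNO and cPTIO, and 0.00748%, 0.0% and 0.112% lower, which is 0.666% in either direction for GSNO with cPTIO. At an unadjusted p under 0.05 limma listed 32, 29 and 45 of the 318, and 1035, 998 and 1552 of all 13362 regions. AT1G49832 held 129 and 114 scaled reads with GSNO, 88.6 and 98.5 with GSH, and 101 and 74.1 with GSNO and cPTIO, against 19.0 in the water library. The log2 folds were 2.61 ± 0.38, 2.24 ± 0.38 and 2.13 ± 0.38 (limma adjusted p = 0.000557, 0.00337 and 0.00513).

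The water libraries of 3 h held 135 and 135 scaled reads at AT1G49832, and the water library of 16 h was the lowest of the 17. The treated values of 16 h lay at or below those of 3 h, with log2 folds of 16 h over 3 h of -0.16 ± 0.31 for GSNO, -0.30 ± 0.31 for GSH and -0.75 ± 0.31 for GSNO with cPTIO. All 3 folds over water at 16 h rest on the same library, and a single library has no replicate check.

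The authors' deposited tables of 16 h called 12 of the 318 regions higher with GSNO (0.913% of all regions), 19 with GSH (2.09% of all regions) and 5 with GSNO and cPTIO (0.457% of all regions), and 0 lower (0.0225%, 0.0674% and 0.105% of all regions). These make 20 different regions, 11 of them called with GSNO and with GSH and 4 in all 3 of the authors' deposited tables. The water library of 16 h lay below both water libraries of 3 h at 19 of the 20, against 130 of all 318 (40.9%). It was the lowest of the 17 libraries at 11 of the 20, against 21 of all 318 (6.6%). The 20 were chosen by calls of higher reads than in this same library. A low value there is thus built into the choice, and these counts do not test why the regions were called.

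The 4 regions called in all 3 of the authors' deposited tables were AT1G49832, the snoRNA gene AT5G09125, and the regions beside RLP21, a receptor-like protein gene, and beside BT2, which encodes a BTB and TAZ domain protein. Beside BT2 (chr3:17911969-17912686, 1230 bases away) the scaled reads at 16 h were 53.8 and 114 with GSNO, 106 and 146 with GSH, and 97.9 and 119 with GSNO and cPTIO, against 1.58 in water, which is 1 read. Each treated library of 16 h lay above the water library, and no fold is given against that floor. At 3 h a GSNO library stood at 1 read there too, with 106 in the other, so the spread between libraries is wide.

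Beside the related gene BT5 (chr4:17672649-17673423, 295 bases away) the scaled reads at 16 h were 79.3 and 115 with GSNO, 189 and 181 with GSH, and 126 and 126 with GSNO and cPTIO, against 42.8 in water. In the authors' deposited table the log2 fold with GSH was 2.12 (FDR = 1.91e-07). The water libraries of 3 h held 72.3 and 92.1, above that of 16 h and below the GSH libraries of 16 h. In limma neither BT2 nor BT5 was called.

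The comparisons of treatments with each other made no call among the 318 regions, at 3 h or at 16 h. For GSNO against GSH, 0.0% of all regions were called at either time. For GSNO against GSNO with cPTIO, 0.0% were called at 3 h and 0.0225% at 16 h. At an unadjusted p under 0.05, limma listed 4 and 6 of the 318 for GSNO against GSH at 3 h and 16 h, and 229 and 337 of all 13362 regions. For GSNO against GSNO with cPTIO it listed 11 and 39 of the 318, and 614 and 1297 of all regions. Of the 39 at 16 h, 33 had a fold above 0, and the 1297 of all regions were not split by direction. Whatever their p, 34.9% of the folds of the 318 lay below 0, against 49.7% over all regions. The GSNO with cPTIO libraries of 16 h held 1686093 and 2038442 reads, against 1773594 and 3674371 with GSNO. An effect of depth was not tested. A missing call does not show that the treatments act alike. The 95% interval of the log2 fold lay within -1 to 1 for 224 of the 318 (70.4%) and 222 (69.8%) for GSNO against GSH at 3 h and 16 h, and for 220 (69.2%) and 189 (59.4%) for GSNO against GSNO with cPTIO. Over all regions these shares were 85.4%, 84.6%, 82.5% and 78.7%.

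The lowest adjusted p among these, 0.203 in limma, was reached for GSNO against GSNO with cPTIO at 16 h. At AT5G07455 the GSNO libraries held 146 and 148 scaled reads, against 85.8 and 61.7 with GSNO and cPTIO (1.0 ± 0.26). Beside AT2G24600 they held 184 and 255, against 61.7 and 147 (1.18 ± 0.32), and without the deeper library of GSNO with cPTIO that fold was called, at 1.80. The groups did not overlap at either region, each of which was chosen for its small p. For GSNO against GSH the smallest p at 16 h were found at AT5G00560 (0.78 ± 0.26) and the pseudogene CYP71B18 (0.61 ± 0.20), and at 3 h at AT4G10690 (-2.43 ± 0.91) and AT5G00560 (-0.61 ± 0.26). For GSNO against GSNO with cPTIO at 3 h they were found at AT5G00435 (1.78 ± 0.56) and AT5G00560 (-0.80 ± 0.26).

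Between the times, 6 of the 318 regions were called. At 16 h against 3 h, AT4G16892 beside SNC1 was higher with GSNO (0.614% of all regions higher, 0.269% lower, 0.883% in either direction), AT5G00560 was lower with GSH (0.225% of all regions lower), and with GSNO and cPTIO AT1G27285, AT4G16892 and AT5G00435 were higher (1.89% of all regions) and AT5G07455 and AT3G20975 lower (1.55% of all regions). These were 1, 1 and 5 of the 318 (0.314%, 0.314%, and 0.943% higher with 0.629% lower). The shares lay below those of all regions with GSNO and with GSNO and cPTIO. With GSH the share of lower calls, from 1 region, lay above that of all regions. At AT4G16892 the scaled reads were 397 and 523 at 16 h against 156 and 261 at 3 h with GSNO (1.17 ± 0.23, limma adjusted p = 0.00965), and 413 and 311 at 16 h against 144 and 242 at 3 h with GSNO and cPTIO (0.94 ± 0.23, limma adjusted p = 0.0229).

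The other groups gave like values at AT4G16892, with 389 and 392 at 16 h against 192 and 212 at 3 h for GSH (0.95 ± 0.23, limma adjusted p = 0.0588), and 443 at 16 h against 231 and 231 at 3 h for water. The 7 libraries of 16 h, water included, lay between 311 and 523, above the 10 of 3 h, which lay between 144 and 261. Treatment length cannot be told apart here from any difference in age or hour of harvest between 3 h and 16 h. The log2 folds over water at 16 h were 0.04, -0.18 and -0.31 with GSNO, GSH and GSNO with cPTIO, none of them called.

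At AT5G00560, a non-coding RNA gene 1860 bases from the ABC transporter gene ABCB27, the GSH libraries held 82.5 and 65.4 scaled reads at 16 h against 172 and 166 at 3 h (-1.19 ± 0.26, limma adjusted p = 0.0338). In water the values were 105 at 16 h against 177 and 179 at 3 h. With GSNO and cPTIO they were 217 and 203 at 16 h against 191 and 192 at 3 h. At AT5G07455 the GSNO with cPTIO libraries held 85.8 and 61.7 at 16 h against 145 and 149 at 3 h (-1.0 ± 0.26, limma adjusted p = 0.0332).

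The fold of AT5G00435 with GSNO and cPTIO (2.26 ± 0.56, limma adjusted p = 0.0267) came from 119 and 115 scaled reads at 16 h against 9.5 and 56.7 at 3 h, and was 1.03 without the low library of 3 h. In the same groups the called region on AT1G27285 (chr1:9478838-9479670) rose to 307 and 394 at 16 h, against 190 and 210 at 3 h (0.80 ± 0.17, limma adjusted p = 0.00978). At the other regions on AT1G27285 both libraries of 16 h also lay above both of 3 h, without a call. The called region on AT3G20975 (chr3:7350492-7351110), 150 bases from NFU4, fell to 111 and 138, against 239 and 198 (-0.81 ± 0.22, limma adjusted p = 0.0429). Another region named AT3G20975 (chr3:7353926-7354550) held 126 and 128 at 16 h, against 122 and 137 at 3 h. Each of these calls between the times was lost when 1 library was left out. Without the shallower GSNO library of 3 h the fold of AT4G16892 with GSNO was 0.80, and without the shallower 3 h library of GSNO with cPTIO its fold there was 0.56.

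**Figure D5:**
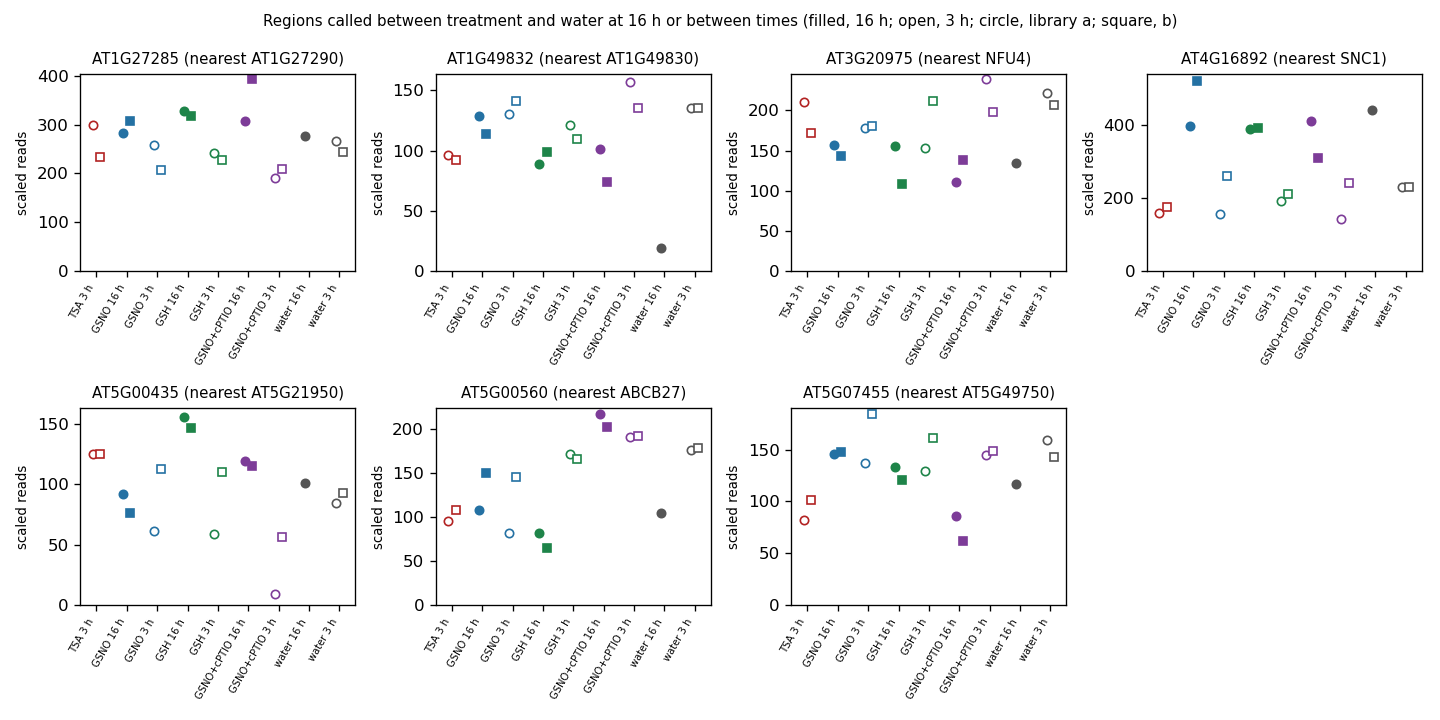
Scaled reads (y axis) in each library by treatment and time (x axis, 16 h filled and 3 h open) at the 7 regions called between a treatment and water at 16 h or between the times. At AT1G49832 the water library of 16 h stands at 19.0, below each other library, and at AT4G16892 the libraries of 16 h, water included, stand above those of 3 h.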

How the data were processed

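ChIP libraries of 10 groups were used, grouped by sample title. The authors deposited 7 tables of differential binding over the same 13362 regions and a peak list per ChIP library. The tables hold the log2 mean of normalised reads per group, a log2 fold and, in the authors' deposited test, a p-value and FDR per region. Per the submitters' processing notes, the tools were DiffBind and edgeR (no versions) and the builds TAIR10 and TAIR9. Aligner and peak caller: not given in the sources used here. The score column of the deposited peak lists is 0 throughout and was not used. The tables' control was read as water of the same time.

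Reads of 17 libraries were recovered from the group means, which step in whole reads once each library's scaling is undone (whole at 100.0% of regions within 5e-07). The recovery was tested on simulated data. These libraries carry no replicate number. No source used here states whether input reads were subtracted. The lowest value is 1 read, and folds against it depend on that floor.

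After scaling by TMM factors (trims 0.3 and 0.05), log2(scaled reads + 1) went into limma 3.58.1 under R 4.3.3 (1 fit of all libraries, trend, two-sided, Benjamini-Hochberg over 13362 regions, called under 0.05). The test was checked on simulated data, with a spread that was set and not taken from these libraries. Of 2-fold changes it recovered 52% for TSA against water and 55% for GSH against water at 3 h. The share was 25% for GSH against water at 16 h and 50% for GSNO against GSH at 3 h. Of 4-fold changes it recovered 100% in each. A missing call thus does not exclude a 2-fold change. The added 1 read understates changes of low regions, while the mean of logs gives 1 library near the floor a large weight. At AT4G10690 with GSNO at 3 h the log2 fold was -2.72, against -0.97 in the authors' deposited table. A change shared by all regions cannot be seen. With 2 samples a group that the labels do not tie to separate cultures, p-values cover only the spread between these samples, which may be technical. Regions were annotated with NCBI RefSeq's table for TAIR10.1 (5 nuclear chromosomes), which gives no strand, so upstream and downstream are not told apart, and sequences were not analysed here.

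The regions, classes and lists were chosen with earlier results of these data known. Named are the 8 called regions with the largest falls with TSA, up to 4 called regions a direction in the other comparisons (or, with none, the 2 with the smallest p), the regions on microRNA, snoRNA and small nuclear RNA genes (those on snoRNA genes by name only where called or plotted), the highest, lowest, farthest and widest regions, and, chosen after their values were seen, TAS and SADHU regions and those called in the authors' deposited tables.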

Additional observations from a re-analysis of the deposited data

Results flagged for a closer look

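The response of AT1G49832 differed between the times. The log2 fold of GSNO over water was 2.61 ± 0.49 higher at 16 h than at 3 h, and that of GSH 2.47 ± 0.49 higher, each tested as a difference of differences in limma (adjusted p = 0.0234 and 0.0407). For GSNO with cPTIO the difference was 2.02 ± 0.49 (limma adjusted p = 0.145). At 3 h the folds over water were 0.00 ± 0.31 with GSNO and -0.23 ± 0.31 with GSH. The single water library of 16 h held 19.0 scaled reads there, against 135 and 135 in the water libraries of 3 h, and both differences rest on it. Over all regions 16 were called in each of the first 2 tests and 24 in the third, where none of them was one of the 318.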

How the results depend on the processing

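The 69 lower calls with TSA numbered 53 to 80 under the other settings of the same 318 regions (pseudocount 4, a minimum of 10 reads, scaling to total reads or to equal medians, no trend, a depth order block, and only TSA and water of 3 h in the fit, added after the data were seen), and 39 of the 185 regions at least 500 bases from a coding gene. Higher calls with TSA numbered 6 with only TSA and water in the fit and 6 in the authors' deposited table. Leaving out 1 library gave 27 to 35 lower and 0 to 2 higher calls. At 16 h against water, higher calls numbered 3 (GSNO), 2 (GSH) and 2 (GSNO with cPTIO) without the trend, and 12, 19 and 5 in the authors' deposited tables. For 16 h against 3 h with GSNO, higher calls numbered 0 without the trend and 0 at 500 bases or more, and lower calls 1 with the depth order block. With GSH, higher calls numbered 1 with pseudocount 4 and 2 with the depth order block, and lower calls 0 without the trend. With GSNO and cPTIO, higher calls numbered 0 without the trend, and lower calls 1 without the trend, 5 with the depth order block and 1 at 500 bases or more. The difference in the share of reads, TSA minus water, was -0.228 percentage points at 500 bases or more. Where a setting moved a count, the cause was not tested beyond the fewer regions at 500 bases or more.

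Leaving out 1 library, lower calls ranged from 0 to 2 for GSNO against water at 3 h and at 16 h, 0 to 1 (3 h) and 0 to 3 (16 h) for the mixture of GSNO and cPTIO against water, 0 to 2 (3 h) and 0 to 3 (16 h) for GSNO against GSH and likewise for GSNO against GSNO with cPTIO, and, at 16 h against 3 h, 0 to 3 with GSNO, 0 to 0 with GSH and 0 to 14 with GSNO and cPTIO. Higher calls at 3 h ranged from 0 to 1 against water for GSH and for the mixture of GSNO and cPTIO. They ranged from 1 to 2 for GSNO against water at 16 h, 0 to 1 (3 h) and 0 to 9 (16 h) for GSNO against GSNO with cPTIO, and, at 16 h against 3 h, 0 to 6 with GSNO and 0 to 7 with GSNO and cPTIO. The difference in the share of reads ranged from -0.465 to -0.305, and that in regions with a peak from -166.5 to -58.5 at 3 h and from -81.0 to 155.0 at 16 h, where it changed sign.

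No paired analysis was possible because the recovered libraries carry no replicate number. The depth order block could not be fitted for the single water library of 16 h, and peaks could not be split by score because it is 0 throughout. Of the folds of named regions under other settings, 1173 stayed on the same side of the threshold, called or not, 98 lost a call and 16 gained one, and none that was called changed sign. In 9 of the 318 regions a library stood at 1 read.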

Other observations

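The peak lists also hold peaks that overlap neither a protein-coding gene nor a region of the differential tables. In TSA replicate 1 of 16 h there were 458 of them, of which 93 (20.3%) lay on a non-coding gene or pseudogene and 111 overlapped such a peak of another list, against 6 in water replicate 1 of 16 h. At 3 h the numbers were 44 and 42 with TSA, against 106 and 8 in water. The list of water replicate 2 of 16 h held 521 of them, which is 49.9% of its 1044 peaks on the chromosomes and none in a region of the tables, with 217 (41.7%) at least 5000 bases from a coding gene. In TSA replicate 2 of 16 h 24 were found, 18 of them that far away. List length differs widely between these libraries, and whether the peaks mark acetylation was not tested.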
